A study of Homo sapiens with 4 samples.

Results

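The human ubiquitin-specific protease (USP) genes were described here in K562 cells, an established erythroleukemia cell line, after 4 h with AC-1041, a compound the series title calls a thalidomide analog. The members were all gene probes whose name in the files was USP followed by a digit. There were 51 such probes for 51 genes, of 14297 gene probes for 14272 gene names. RNA of treated cells and RNA of control cells were hybridised together on each of 4 two-colour arrays, with treated RNA in Cy5 on arrays 1 and 2 and in Cy3 on arrays 3 and 4. The labels call the control cells untreated and the methods describe a DMSO control. The dose is stated in the methods and not in the labels. The methods describe 4 samples of treated cells with their controls, but neither source says that these were separate cultures, so the spread between arrays may be technical. Both groups were the same cell line, with no engineered allele.

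USPs are the largest family of deubiquitinases, cysteine proteases that cut ubiquitin from proteins or trim ubiquitin chains. By removing the tag they can spare a protein from the proteasome, return a receptor from the endosome to the cell surface or erase ubiquitin from histones. The family members share a catalytic domain and differ in the flanking parts that choose partners and location. A few members, among them USP53 and the protein once called USP52, have been classed as lacking deubiquitinating activity.

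The quality of the arrays differed by dye orientation. Between 5941 and 7403 gene probes were well above background (Agilent's mark for a spot clearly brighter than the background noise) on arrays 1 and 2, and between 8982 and 9515 on arrays 3 and 4. Among the USP probes, 30 to 38 were well above background on arrays 1 and 2 and 42 to 44 on arrays 3 and 4, and no spot was saturated. The first pair of arrays and the second lay in different rows of the slide, so dye orientation, array quality and slide position cannot be told apart. All 10 of 10 erythroid markers of K562 cells were well above background in both channels of arrays 3 and 4, as were 2 of 3 markers each of T, myeloid and epithelial cells (CD3D and CD3E, CD14 and CD163, EPCAM and KRT8). The part of these in any result was not tested.

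The promoters of the member that rose most (USP53), the member that fell most (USP15) and the called members that held 1 of 5 stress response motifs (USP52 and USP14) are shown, as the extremes of the response and the motif-bearing called genes. RefSeq windows of 300 bases around the transcription start, on build GRCh38.p14, were matched for 39 of the 50 members other than USP9Y. Capitals mark a motif, and the windows of USP53 and USP15 held none of the 5.
USP53 promoter, chr4:119212463-119212762, plus strand: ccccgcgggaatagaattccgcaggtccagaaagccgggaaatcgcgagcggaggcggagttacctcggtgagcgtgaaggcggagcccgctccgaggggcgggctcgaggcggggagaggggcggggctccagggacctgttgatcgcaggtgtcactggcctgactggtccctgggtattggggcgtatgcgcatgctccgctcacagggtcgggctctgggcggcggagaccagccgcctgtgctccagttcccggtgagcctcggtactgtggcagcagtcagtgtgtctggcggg
USP15 promoter, chr12:62260154-62260453, plus strand: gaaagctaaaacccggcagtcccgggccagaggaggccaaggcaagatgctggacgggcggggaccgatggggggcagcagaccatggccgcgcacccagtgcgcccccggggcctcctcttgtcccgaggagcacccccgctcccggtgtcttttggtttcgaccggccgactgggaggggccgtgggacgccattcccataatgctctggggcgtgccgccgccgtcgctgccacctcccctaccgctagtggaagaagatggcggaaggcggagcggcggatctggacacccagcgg
USP52 (now PAN2) promoter, chr12:56333951-56334250, minus strand: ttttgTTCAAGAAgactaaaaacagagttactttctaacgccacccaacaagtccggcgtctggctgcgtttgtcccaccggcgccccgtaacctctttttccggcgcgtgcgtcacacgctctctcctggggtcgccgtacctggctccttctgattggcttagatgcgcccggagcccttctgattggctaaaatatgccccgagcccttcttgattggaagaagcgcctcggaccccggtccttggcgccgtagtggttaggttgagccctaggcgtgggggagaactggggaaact
USP14 promoter, chr18:158307-158606, plus strand: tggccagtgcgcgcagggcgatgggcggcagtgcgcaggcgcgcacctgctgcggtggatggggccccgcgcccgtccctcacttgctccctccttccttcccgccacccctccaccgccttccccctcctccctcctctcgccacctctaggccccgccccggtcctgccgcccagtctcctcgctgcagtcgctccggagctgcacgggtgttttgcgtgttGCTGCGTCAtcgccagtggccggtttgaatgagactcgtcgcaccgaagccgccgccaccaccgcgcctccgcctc

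Motifs were searched on both strands. The tail-to-tail heat shock element TTCNNGAA stood in 2 of 39 USP promoters (USP16 and USP52) and in 7.73% of all 34961 promoters. In USP52 it began at -245 from the transcription start. The antioxidant response element core TGACNNNGC stood in 4 of 39 (USP2, USP13, USP14 and USP38) and in 13.4% of all promoters, and in USP14 it lay at -26 on the opposite strand. The head-to-head heat shock element GAANNTTC, the ATF4 and C/EBP element TGATGNAA and the cAMP response element TGACGTCA stood in 0 of 39, against 6.79%, 3.62% and 1.85% of all promoters. These are matches of letters in a window, not sites of binding.

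Of the 51 members, 43 passed the filter on dim probes (2 or more arrays with either channel well above background) and 42 could be tested. USP28 passed, but arrays 1 and 3 had it marked as a non-uniform or outlying spot. The 8 that did not pass were USP9Y, USP13, USP26, USP27X, USP29, USP40, USP43 and USP51. Apart from USP9Y, whose level is not given, their single-array log2 ratios lay between -0.31 (USP13 on array 1) and 0.40 (USP51 on array 4). For each tested probe, limma fitted the log2 ratio of treated over control signal with a term for dye, and p-values were adjusted by Benjamini-Hochberg over all 8852 probes tested. The dye term takes the gap between dye orientations out of the error. The SE and p thus rest on the spread between arrays of the same orientation, moderated across probes, and do not measure agreement between orientations. The SD given below spans all arrays. At an adjusted p under 0.05, 16 of 42 USP genes were called (38.1%), against 37.3% of all probes tested. Of these, 12 were higher in treated cells (28.6%, against 24.3% of all probes) and 4 were lower (9.52%, against 13.0%). The share of USP genes called was thus close to the background.

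The fitted log2 ratios of the 42 genes had a median of 0.14, an interquartile range from -0.073 to 0.287 and a full range from -0.49 to 1.46. Over all probes tested the median was 0.0167. The ratio was above 0 for 27 USP genes and below 0 for 15, against 4691 and 4161 of all 8852 probes. Over all probes 65.2% of called probes were higher in treated cells, and 79.9% when arrays were centred on their median in place of loess. With median centring 15 of 42 USP genes were called higher and 2 lower, against 2364 and 596 of all 8852 probes.

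**Figure D1:**
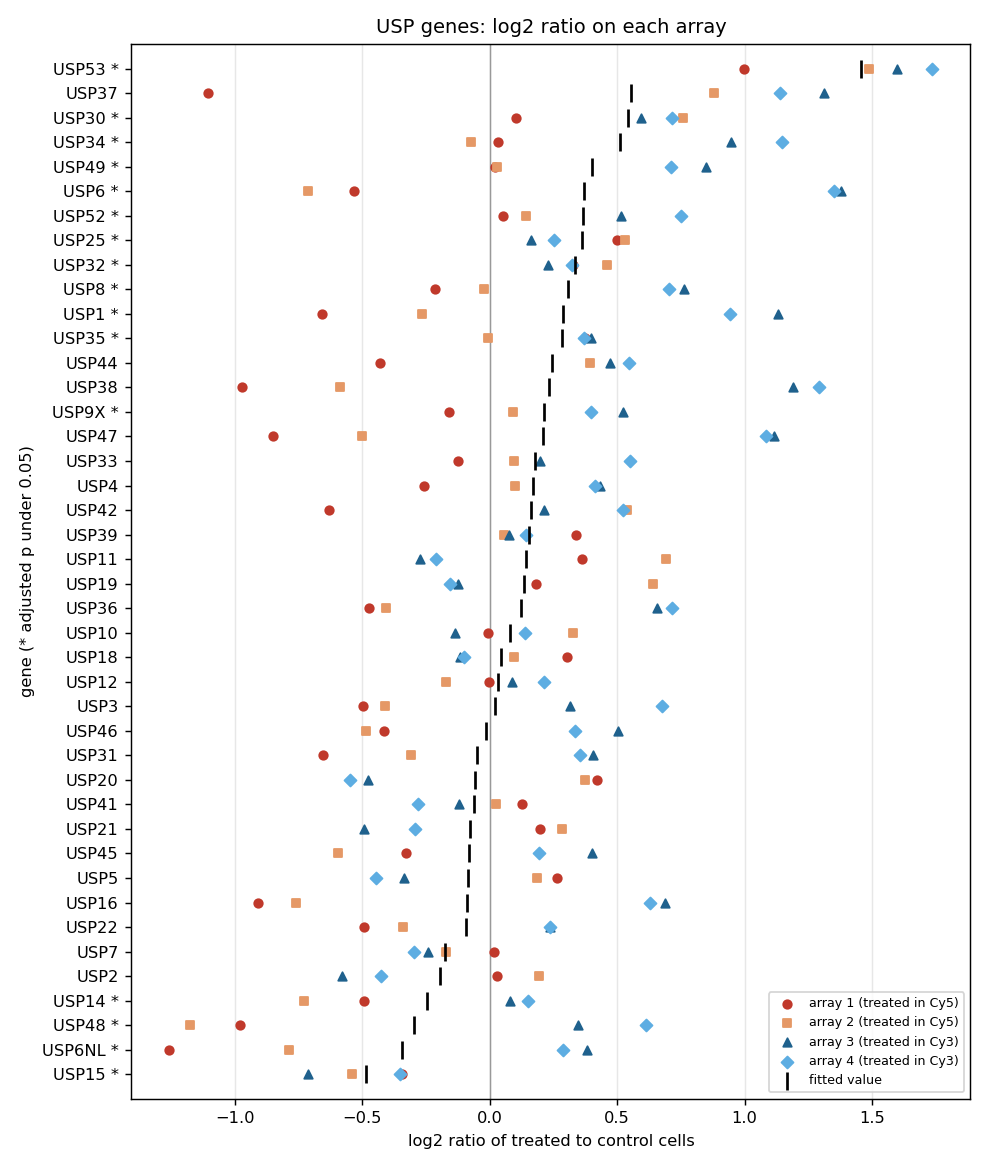
Log2 ratio, treated over control, on each of the 4 arrays (coloured points) for the 42 tested USP genes, ordered by the fitted value (black bar), with * for an adjusted p under 0.05. USP53 lies apart at the top with arrays from 0.998 to 1.74, and USP15 at the bottom with arrays from -0.71 to -0.34, while many genes between them have red and blue points on opposite sides of 0.

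The USP ratios differed by the dye orientation of the array. Across the 42 genes the median was -0.143 and 0.027 on arrays 1 and 2, where treated RNA was in Cy5, and 0.364 and 0.361 on arrays 3 and 4, where it was in Cy3. The number of genes above 0 on arrays 1 to 4 was 18, 22, 31 and 32. Both arrays with treated RNA in Cy3 thus lay above both of the other orientation. The medians of all probes by orientation were 0.03 in Cy5 and 0.04 in Cy3. Loess normalization holds these near 0 on each array, so they could not show such a shift.

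The mean ratio of the gene had opposite signs in the 2 orientations for 31 of 42 USP genes (73.8%), against 61.7% of all probes. In 23 of the 31 it was higher with treated RNA in Cy3 and lower with it in Cy5, and in 8 the reverse. The dye term itself was past an adjusted p of 0.05 for 27 of 42 (64.3%), against 58.2% of all probes. As a description across the 42 genes, which share array and dye, Pearson's r was 0.655 between arrays 1 and 2, 0.958 between arrays 3 and 4, and from -0.346 to -0.0189 between arrays of opposite orientation. Without the dye term in the fit, only USP53 of the 16 called genes was still called.

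**Figure D2:**
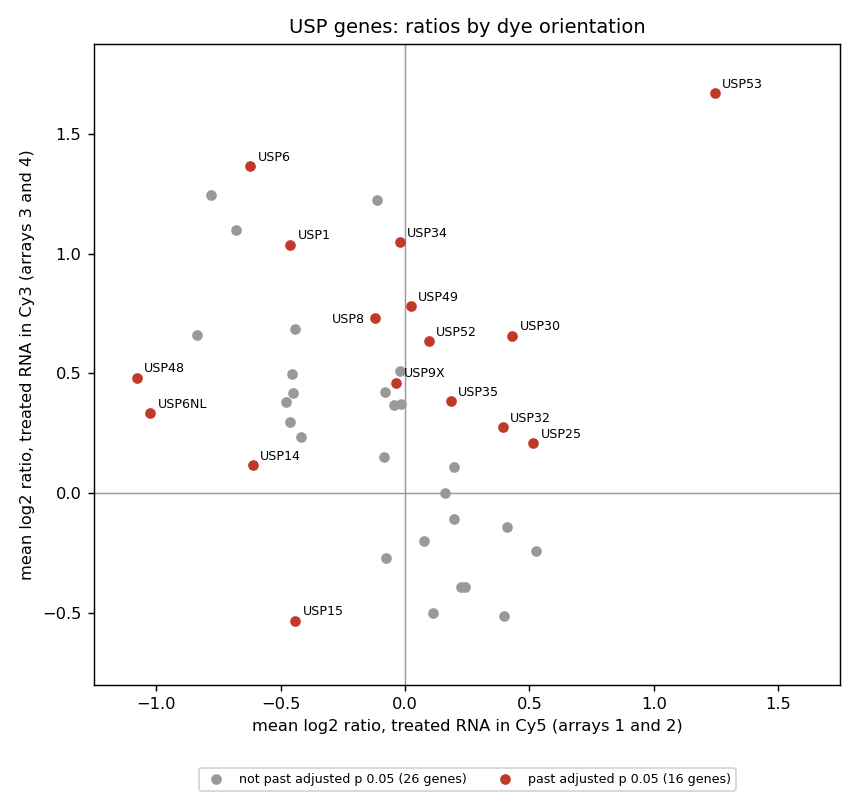
Mean log2 ratio of each of the 42 tested USP genes on the arrays with treated RNA in Cy5 (horizontal) and in Cy3 (vertical), with the 16 called genes in red and the 26 others in grey. USP53, USP30, USP25, USP32, USP35, USP49 and USP52 lie above 0 on both axes and USP15 below 0 on both, while the other 8 called genes lie above 0 in Cy3 and below 0 in Cy5.

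Called genes with the same sign on all 4 arrays numbered 7 (16.7%), against 19.1% of all probes. The 6 higher on every array were USP53, USP30, USP49, USP52, USP25 and USP32 (background 13.0%), and the 1 lower was USP15 (background 6.13%). Of these, USP49 passed the filter on dim probes only through the treated channel. The counts by role that follow rest on few genes each and stand against the 24.3% of all probes called higher and the 13.0% called lower.

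USP53, long classed as an inactive USP and found at cell junctions, changed most. At its probe (hg18 chr4:120434704-120434763) the intensity in treated and control cells was 3685 against 1845, 5115 against 1821, 4074 against 1343, and 5247 against 1574 on arrays 1 to 4. The log2 ratio was 0.998, 1.49, 1.60 and 1.74. Treated cells were brighter on every array. The lowest treated value lay above the highest control value, but intensities were not scaled between arrays, so only comparisons within an array are like for like. The fitted log2 ratio was 1.46 (SD 0.32, n = 4 arrays, SE 0.0889), or 2.74-fold higher, with a limma adjusted p of 1.97e-05. It ranged from 1.33 to 1.58 when each array was left out in turn.

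USP52, also classed as inactive and now named PAN2, is a subunit of a deadenylase that shortens poly(A) tails. Its log2 ratio (hg18 chr12:54997351-54997410) was 0.05, 0.14, 0.52 and 0.75 on arrays 1 to 4, so it was above 0 on every array and larger on both arrays with treated RNA in Cy3. The fitted ratio was 0.365 (SE 0.0706, limma adjusted p = 0.00456). With Feature Extraction's processed signals it was 0.21 and not called, and without array 4 the adjusted p was 0.0789.

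Among members at organelle membranes or in the degradation of endoplasmic reticulum proteins, 2 of 3 tested genes rose (24.3% of all probes did), and both calls were lost without array 4. USP30, which removes ubiquitin at the outer mitochondrial membrane and restrains mitophagy, had log2 ratios of 0.10, 0.76, 0.60 and 0.72 on arrays 1 to 4 (hg18 chr12:108009761-108009820). Array 1 was the low one. The fitted ratio was 0.54 (SD 0.30, n = 4, SE 0.103), or 1.46-fold, with a limma adjusted p of 0.00423, and 0.0531 without array 4. USP25, which counters ubiquitination of endoplasmic reticulum clients, had ratios of 0.50, 0.53, 0.16 and 0.25 and a fitted 0.36 (SE 0.0644, adjusted p = 0.00307; 0.0566 without array 4). Its ratio was larger on both arrays with treated RNA in Cy5, the opposite order to USP52. USP19, the other tested member of this group, had 0.18, 0.64, -0.13 and -0.16 and was not called (adjusted p = 0.245).

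**Figure D3:**
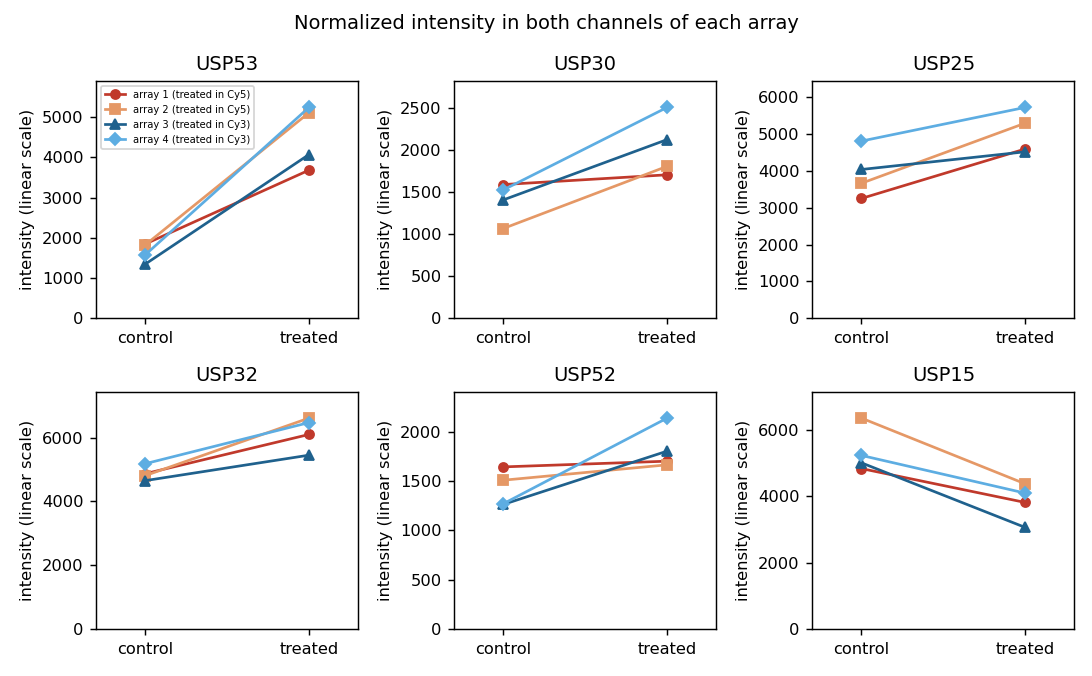
Normalized intensity (linear scale) in control and treated cells, joined for each of the 4 arrays, for the 6 genes USP53, USP30, USP25, USP32, USP52 and USP15. Every line rises for the first 5 genes, most steeply for USP53, and every line falls for USP15.

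All 4 endosome and Rab-related members were called (37.3% of all probes were), 3 higher and 1 lower, but only USP32 had the same sign on every array. USP32, a membrane-bound USP that acts on the small GTPase Rab7, had ratios of 0.33, 0.46, 0.23 and 0.32 with a fitted 0.33 (SD 0.0953, SE 0.0664, adjusted p = 0.00526; 0.078 without array 4). It had the smallest spread between arrays of the called genes. USP8, which deubiquitinates receptors at the endosome, had -0.22, -0.02, 0.76 and 0.70. Its fitted ratio of 0.31 (adjusted p = 0.00899) rested on the Cy3 orientation alone, with a mean of -0.12 in the other, and the adjusted p was 0.0838 without array 3 and 0.0766 without array 4.

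USP6, a hominoid gene made in part from USP32, had -0.53, -0.71, 1.38 and 1.35, and its fitted 0.37 (adjusted p = 0.00331) was 0.14 and not called with Feature Extraction's processed signals. USP6NL, which despite its name encodes a GTPase-activating protein for Rab5 and no protease, had -1.26, -0.79, 0.38 and 0.29 with a fitted -0.34 (adjusted p = 0.0147; 0.0752 without array 3 and 0.126 without array 4). It was -0.54 with those signals and -0.23 without array 1, called in both. Both changed sign between the dye orientations, by over 1 log2 unit, so their fitted values are small differences between large opposite ones. Whether the USP6 probe also took up USP32 transcripts was not tested.

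Of 3 spliceosome-linked members, USP15 fell. USP15, which trims ubiquitin from spliceosome, SMAD and other signalling proteins, had intensities in treated and control cells of 3817 and 4841, 4379 and 6365, 3063 and 5015, and 4099 and 5238 on arrays 1 to 4 (hg18 chr12:61016315-61016374). The log2 ratio was -0.34, -0.54, -0.71 and -0.35. Treated cells were dimmer on every array. The highest treated value lay below the lowest control value, but these come from different arrays, which were not scaled to each other. The fitted ratio was -0.49 (SD 0.17, n = 4, SE 0.0806), or 1.40-fold lower, with a limma adjusted p of 0.00211. It was still called with each array left out, at -0.58 to -0.40.

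USP39, a splicing factor whose protease domain lacks the catalytic residues, had 0.34, 0.06, 0.07 and 0.14. These were above 0 on every array, but the fitted 0.15 was not called (adjusted p = 0.132). It was 0.22 with an adjusted p of 0.0298 without array 2. USP4, the paralog of USP15, had -0.26, 0.10, 0.43 and 0.41 and was not called (adjusted p = 0.116).

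Of 8 members listed as histone-directed, 6 were tested and 1 was called (37.3% of all probes were). USP48, which also acts on histone ubiquitination, was not in this list. It was called lower and is given below with the other members. USP49, which acts on histone H2B, had 0.02, 0.03, 0.85 and 0.71. It was near 0 on arrays 1 and 2. It was well above background in treated cells on only 2 arrays and in control cells on 1. USP49 thus passed the filter only through the treated channel, where it was higher, so its call carries little weight. Its fitted 0.40 (adjusted p = 0.00197) was 0.02 on the arrays with treated RNA in Cy5 and 0.74 with Feature Extraction's processed signals. USP22, the protease of the SAGA coactivator complex, had -0.49, -0.34, 0.24 and 0.24 (fitted -0.09, adjusted p = 0.311). It was called with Feature Extraction's processed signals, at -0.38 (adjusted p = 0.0158). The other 4 tested, USP3, USP16, USP21 and USP44, had fitted ratios of 0.02, -0.09, -0.08 and 0.24.

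USP16, which removes ubiquitin from histone H2A, was the most split of these by dye orientation. Its ratios were -0.91, -0.76, 0.69 and 0.63. The mean was thus -0.83 in one orientation and 0.66 in the other.

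USP1, USP12 and USP46 bind the activator WDR48 (UAF1), and USP1 acts in Fanconi anemia and translesion DNA repair. USP1 had -0.66, -0.26, 1.13 and 0.94. All 3 genes had opposite signs by dye orientation. USP1 was called higher at a fitted 0.29 (adjusted p = 0.026), which passed 0.05 in no fit that left out array 2, 3 or 4 (0.0677, 0.177 and 0.0978), nor with the processed signals (0.0714) or median centring (0.102). USP12 and USP46 had fitted ratios of 0.03 and -0.02 (adjusted p = 0.741 and 0.878).

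The 3 members that act on p53 or MDM2 gave no call in limma. Of them, 2 (USP7 and USP2) were lower at an unadjusted p under 0.05, as were 1622 of all 8852 probes. USP7, which stabilises both proteins, had 0.02, -0.17, -0.24 and -0.30 (fitted -0.17, SE 0.0678, adjusted p = 0.0762). It was below 0 on arrays 2, 3 and 4, and was called without array 1, at -0.22 (adjusted p = 0.0226). USP2 had 0.03, 0.19, -0.58 and -0.43 (adjusted p = 0.055) and USP10 a fitted 0.08 (adjusted p = 0.479). In each channel USP2 was well above background on only 2 arrays.

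Of the members that recycle ubiquitin, USP14, the proteasome-bound USP that trims chains from substrates, had -0.49, -0.73, 0.08 and 0.15. It was below 0 only with treated RNA in Cy5. Its fitted -0.25 (adjusted p = 0.0247) was -0.13 and not called with median centring, and the adjusted p was 0.0595, 0.158 and 0.134 without array 2, 3 or 4. USP5, which takes apart free ubiquitin chains, had 0.26, 0.18, -0.34 and -0.45, with a fitted -0.08 (adjusted p = 0.348) that was 0.051 with median centring (adjusted p = 0.686). USP13 was not well above background on any array.

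USP18, which removes the ubiquitin-like ISG15 and dampens interferon signalling, had 0.30, 0.10, -0.12 and -0.10. It was above 0 on arrays 1 and 2 and below on the others, with a fitted 0.05 (SE 0.0682, adjusted p = 0.633). USP41, a near copy of USP18 on the same chromosome, had a fitted -0.06 (adjusted p = 0.51), and the 2 probes may share transcripts. The interferon list around ISG15 held 7 tested genes of 11 on the array, with 1 called higher and 0 lower in limma. At an unadjusted p under 0.05, 1 was lower, as were 1622 of all 8852 probes. The higher gene was IFIT2, an interferon-induced RNA-binding protein, at 0.19, 0.03, 0.76 and 0.77 (fitted 0.44, adjusted p = 0.00137). IFIT2 was well above background in treated cells on only 2 arrays and in control cells on 1. It thus passed the filter only through the treated channel, where it was higher, so its call carries little weight. ISG15 itself had 0.29, 0.09, -0.35 and -0.58 (adjusted p = 0.182).

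Of the 14 tested members outside these groups, 3 were called higher and 1 lower. USP34, which acts on axin in Wnt signalling, had 0.03, -0.07, 0.95 and 1.15. Its fitted 0.51 (SE 0.0692, adjusted p = 0.000758) came from the arrays with treated RNA in Cy3 and was -0.02 on the others. USP9X, a large X-linked USP that stabilises MCL1 and other proteins, had -0.16, 0.09, 0.52 and 0.40, with a fitted 0.21 near the threshold (adjusted p = 0.0474) that was not called without array 2, 3 or 4 (0.131, 0.252 and 0.166), with the processed signals (0.163) or with median centring (0.114).

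USP35 had 0.37, -0.01, 0.40 and 0.37, so that array 2 lay apart from 3 close values. Its fitted ratio was 0.28 (adjusted p = 0.0226; 0.0502, 0.129 and 0.135 without array 1, 3 or 4), and it was not called with the processed signals (adjusted p = 0.114). USP48, which counters ubiquitination of histone H2A by BRCA1, had -0.98, -1.18, 0.35 and 0.62 and a fitted -0.30 (adjusted p = 0.0155; 0.149 and 0.0525 without array 3 or 4). With median centring it was -0.19 and not called (adjusted p = 0.104), and with Feature Extraction's processed signals it was -0.47 (adjusted p = 0.0428). The sign of USP48 differed between the dye orientations.

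Among those not called in this set, USP37 had a larger fitted ratio than most called genes, 0.56, but a wide spread. Its ratios were -1.11, 0.88, 1.31 and 1.14 (SD 1.12, SE 0.251, adjusted p = 0.117). Array 1 alone lay below 0. USP38 and USP47 were near the threshold (adjusted p = 0.0503 and 0.0603), with means of -0.78 and -0.68 in Cy5 and 1.24 and 1.099 in Cy3. The other 7 (USP11, USP20, USP31, USP33, USP36, USP42 and USP45) had fitted ratios from -0.08 (USP45) to 0.18 (USP33), and none was called.

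Other deubiquitinases were taken from a list of OTU, UCH, JAMM, Josephin and related families. It held 17 genes on the array, 12 were tested, and 4 were higher and 2 lower (50% called, against 37.3% of all probes). VCPIP1, a partner of the VCP ATPase, had 0.52, 0.62, 0.09 and 0.19 (fitted 0.36, adjusted p = 0.0037; 0.0642 without array 4), and BRCC3, a chain-specific protease of the BRCA1-A complex, had -0.44, -0.57, -0.12 and -0.04 (fitted -0.29, adjusted p = 0.00947; 0.092 and 0.0765 without array 3 or 4, and 0.0942 with median centring). These were the only called genes of the list with the same sign on all 4 arrays. ATXN3, a polyglutamine protein, had -0.32, -0.24, 1.27 and 1.13, and MYSM1, a histone H2A deubiquitinase, had -1.24, -1.21, 1.96 and 1.74. Both had opposite signs by dye orientation. ATXN3 was well above background in treated cells on only 2 arrays and in control cells on 1, so it passed the filter only through the treated channel. With the processed signals ATXN3 moved from a fitted 0.46 to 0.78, and MYSM1 from 0.31 to 0.21, where it was not called (adjusted p = 0.131). MYSM1 was not called without array 3 either (adjusted p = 0.102).

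Of 11 genes of the USP partner list on the array, 9 were tested, with 2 higher and 4 lower (66.7% called, against 37.3% of all probes). USPL1, counted in this list but a USP-related protease for SUMO rather than a partner, had 0.39, 0.10, 0.62 and 0.74 (fitted 0.46, SE 0.074, adjusted p = 0.00175). G3BP1, the partner of USP10 in stress granules, had -0.17, -0.24, -0.42 and -0.39 (fitted -0.30, adjusted p = 0.007). These 2 had the same sign on every array. STAM2 and STAM bind USP8 at the endosome: STAM2 had -0.60, -0.43, 2.18 and 2.27 (fitted 0.86), and STAM had -0.45, -0.73, -0.11 and 0.0044 (fitted -0.32; adjusted p = 0.0938 and 0.0678 without array 3 or 4, and 0.0752 with median centring). ENY2, the SAGA partner of USP22, had -1.70, -1.62, 1.08 and 0.96 (fitted -0.32, and -0.57 with the processed signals; adjusted p = 0.0923 without array 4). HGS, the other called gene of this list, had 0.05, 0.05, -0.71 and -0.56 (fitted -0.29, adjusted p = 0.00949). It was below 0 only with treated RNA in Cy3.

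**Figure D4:**
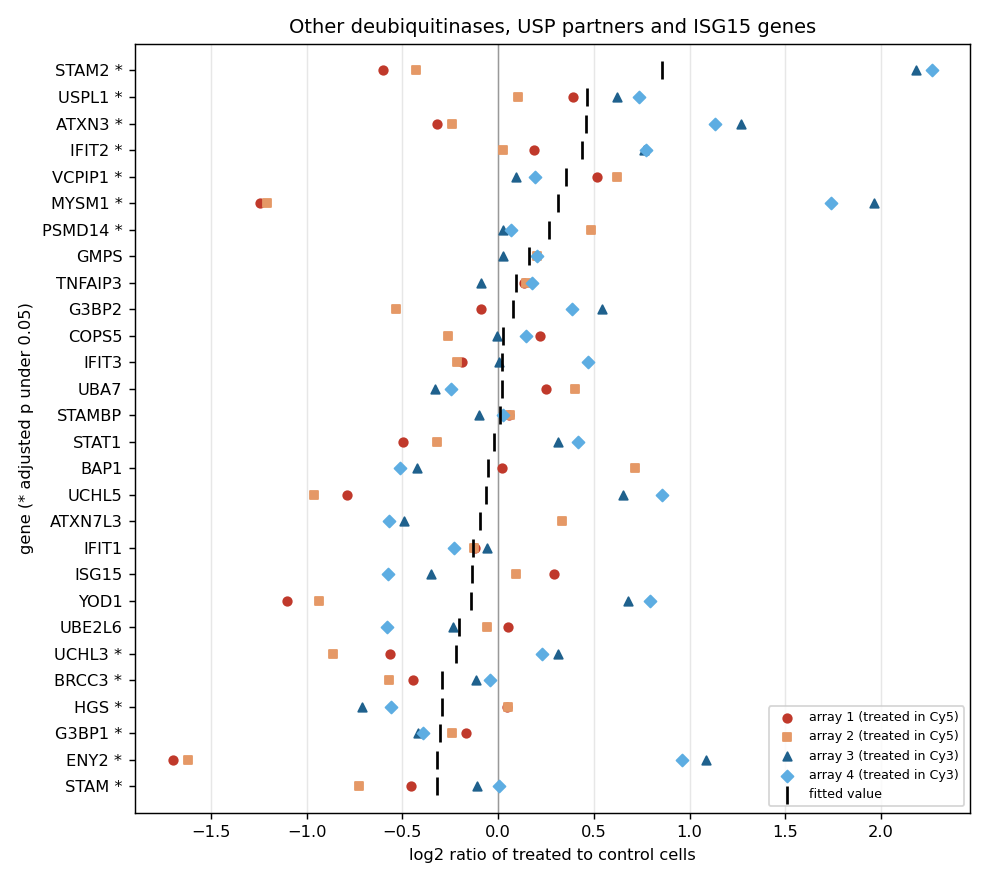
Log2 ratio, treated over control, on each of the 4 arrays for the 28 tested genes of the other deubiquitinase, USP partner and ISG15 lists, ordered by the fitted value (black bar), with * for an adjusted p under 0.05. USPL1, IFIT2, VCPIP1, BRCC3, G3BP1 and the uncalled IFIT1 keep 1 sign on all 4 arrays, while STAM2, MYSM1 and ENY2 show the widest gap between red (treated in Cy5) and blue (treated in Cy3) points.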

How the data were processed

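The authors labelled amplified RNA with Cy3 or Cy5 and scanned 2-colour Agilent arrays with 14833 features. The deposited files hold spot and background intensities in each channel, written by Agilent Feature Extraction 9.5.1.1 (GE2-v5_95_Feb07, hg18) before normalization, processed signals after its own background and dye correction, and the log10 of Cy5 over Cy3. The deposited series table holds log10 ratios, which matched those of the arrays within 0.001 for 99.89% to 100% of values once the sign was turned on arrays 3 and 4, with a median of 0.

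Here intensities were corrected by normexp (offset 50), normalized within each array by loess (span 0.3) with marked spots at weight 0, and turned to log2 of treated over control signal. Marked spots (1.57% to 8.08% of probes on an array) were left out. limma 3.58.1 in R 4.3.3 fitted a treatment and a dye term over 8852 probes, with Benjamini-Hochberg adjustment. The fit was also run on simulated data with independent noise and fewer changed probes than were called here. That run therefore says nothing about the calls in these data. An exact sign-flip permutation test over 4 arrays cannot go below p = 0.125 (two-sided) and was not used. Names came from the RefSeq table for 36 of the 51 USP probes, and 15 kept the name in the files. The number of arrays limits precision. Coordinates of probes were taken from the files (hg18), and whether they lie in a UTR was not examined.

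The members and gene lists were chosen with earlier results of these data known. Genes with values were the called members with a log2 ratio of at least 0.5 in size, a set fixed by role (USP1, USP5, USP7, USP8, USP9X, USP14, USP15, USP18, USP22, USP30 and USP39), up to 4 per other list, and the remaining called members and some uncalled ones, added after their values were seen. G3BP1, HGS, ISG15 and CYLD were given beyond this rule, and their values under the other settings are not given here. Each array was left out in turn, and other background corrections, normalizations, filters, thresholds, array pairings and the fit with no dye term were tried. Fits of each dye orientation alone were chosen after seeing the data. Promoters were searched in Python. The result of 1 marker list is not reported here.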

Additional observations from a re-analysis of the deposited data

Results flagged for a closer look

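Of 22 called or named genes looked at, 1 had a single array far from the other 3. USP35 had log2 ratios of 0.37, -0.01, 0.40 and 0.37 in array order. The distance from array 2 to its nearest neighbour made up 0.924 of the whole spread, past Dixon's critical value. Chance passes about 1 in 20 groups in this way. USP35 was called in the fit without array 2 as well. The cause was not tested.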

How the results depend on the processing

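Fits without the dye term, on paired arrays, or with other filters or thresholds cannot change the ratio of genes with all 4 values. The 16 called USP genes, all with 4 values, kept their direction under the remaining alternatives but the fits of 1 dye orientation. They were still called in 16 cases with no background subtraction, 11 with Feature Extraction's processed signals, 11 with the series table, 12 with median centring, 12 of 12 fitted when both channels had to be well above background on all arrays, 15 with no filter, 14 with marked spots kept, 1 with no dye term, 16 and 15 with arrays averaged as pairs, and 10 at an adjusted p under 0.01. USP genes called higher (12) became 7 with processed signals, 7 with the series table and 1 with no dye term, and ranged from 4 to 20 with an array left out; genes called lower (4) became 2 with median centring, 0 with no dye term and 1 at 0.01, and ranged from 1 to 5. Fitted on the Cy5 orientation alone, chosen after seeing the data, 5 were higher and 15 lower, and on Cy3 alone 28 and 7; the cause was not tested.

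Over all probes, the 2155 higher became 1342 with both channels well above background, 52 with no dye term, 1354 at 0.01, 1010 to 2590 with an array left out, and 1325 (Cy5 alone) and 3392 (Cy3 alone), and the 1151 lower became 596 with median centring, 4 with no dye term, 468 at 0.01, 283 to 1469 with an array left out and 2781 (Cy3 alone). The 4 other deubiquitinases higher became 2 with processed signals, the series table and both channels well above background, and 0 with no dye term (2 to 4 with an array left out), and the 2 lower became 0 with median centring, 0 with no dye term and 1 at 0.01 (0 to 2). The 2 genes of the partner list called higher became 1 with both channels well above background and 0 with no dye term. The 4 lower became 2 with median centring, 2 with both channels well above background and 0 with no dye term (0 to 4 with an array left out). The 1 interferon gene higher became 0 with both channels well above background and 0 with no dye term, and the 0 lower became 1 with both channels well above background (0 to 1 with an array left out).

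Signs turned mostly by orientation. On Cy5 alone the USP median was -0.0397, USP1 -0.46, USP6 -0.62, USP8 -0.12, USP34 -0.021, USP9X -0.035, USP5 0.22, ATXN3 -0.28, MYSM1 -1.22 and STAM2 -0.52. On Cy3 alone USP22 was 0.24, USP48 0.48, USP14 0.12, USP18 -0.11, USP6NL 0.33 and ENY2 1.02. USP18 lay between -0.0065 and 0.097 with an array left out, and USP5 0.051 with median centring. Treated and control RNA share each array, so the ratio pairs them by construction. Low signal over background limits, among others, USP49, ATXN3, IFIT2 and the 8 members that did not pass the filter.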

Other observations

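CYLD, a tumour suppressor that removes linear and lysine-linked ubiquitin chains, had log2 ratios of 0.52, 0.82, 0.72 and 0.65 on arrays 1 to 4, the same sign throughout, but was well above background on no array and was not tested. USP28, which was bright enough but marked on arrays 1 and 3, had 0.48 on array 2 and -0.36 on array 4.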
